A study of Patiria miniata with 16 samples.

Results

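The genes described here are the nanos and vasa genes of the bat sea star Patiria miniata. They were picked by their annotated names from the 27818 genes of the count table: LOC119721081 and LOC119721088, both named nanos homolog 3-like, and LOC119728304 and LOC119742591, both named probable ATP-dependent RNA helicase DDX4, the protein known in flies as vasa. All 4 passed the filter on low counts, which 17519 genes passed. Nanos proteins are RNA-binding proteins that work with pumilio partners and recruit the CCR4-NOT deadenylase, which shortens poly(A) tails and silences mRNA. Vasa is a DEAD-box RNA helicase of germ granules, the RNA and protein bodies of germ cells. Both are classical markers of the germ line, and in sea star embryos their transcripts are known to start broad and to narrow to the primordial germ cells beside the left gut pouch, a narrowing in which nodal signalling takes part.

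Messenger RNA of whole wild-type embryos, pooled for each library, was sequenced in 16 libraries that form 8 groups of 2. The agent was BAPN (beta-aminopropionitrile), which blocks lysyl oxidase, the enzyme that ties collagen fibres together. It was given from the hatched blastula stage and embryos were taken at day 2 or at day 4, or it was given from mid gastrula and embryos were taken at day 3 or at day 4. In the recovery group BAPN was given from hatched blastula to day 2, was then absent, and embryos were taken at day 4. Untreated controls were taken at day 2, day 3 and day 4. The 2 libraries of each treated group had different doses, 1.2 mM and 0.8 mM, and each control library was named in the labels as the partner of a library of 1 dose; "1.2 mM series" and "0.8 mM series" below include these partners. Gastrula to day 4 and recovery have no partner of their own and were set against the day 4 controls, so the day 4 comparisons with controls share those 2 libraries. Nothing in the labels ties the libraries of a group to separate cultures, and p-values then cover the spread among these libraries alone.

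Each library held 9945801 to 14383817 counts. Levels are given in CPM, a gene's counts relative to its library's total after TMM scaling, an adjustment for library composition. A change is a log2 ratio ± its standard error (SE) from 1 edgeR quasi-likelihood model of all 16 libraries. The threshold for a call was 0.05 on the Benjamini-Hochberg adjusted p over 17519 genes, and adjusted p-values come from that model except where a library is left out, another alternative is named or dose is tested, which have fits of their own. BAPN moved much of the transcriptome, so counts of genes called are set beside the share of all tested genes called. No such share is given for statements that groups did not overlap or that treated libraries lay above controls. Those statements describe the levels only. Whole embryos were measured, so more cells that hold a transcript and more transcript per cell cannot be told apart.

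The 2 nanos genes lie on scaffold NW_024037076.1 of the Pmin_3.0 assembly, on the minus strand. LOC119721081 covers bases 20945058 to 20947527 and LOC119721088 covers 21131098 to 21132418, with 183570 bases and 5 genes between them. Each has 1 annotated transcript, and its gene model (2470 and 1321 bases) fills the whole span with no intron. The DDX4 genes lie on different scaffolds, also on the minus strand. LOC119728304 covers 25081276 to 25105512 on NW_024037059.1, with 6 transcripts and 3305 exonic bases in a span of 24237. LOC119742591 covers 8264150 to 8299928 on NW_024037073.1, with 4 transcripts and 3237 exonic bases in a span of 35779.

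LOC119721081 is the nanos gene that could be measured well, with 38 to 339 counts per library. Its highest levels were in embryos kept in BAPN from blastula to day 2, at 28.9 CPM with 1.2 mM and 27.7 CPM with 0.8 mM. Day 2 controls held 6.41 CPM and 7.62 CPM in the same order of series. Both treated libraries were thus far above both controls, and the change was 2.01 ± 0.37 (adjusted p = 1.6e-04), a 4.03-fold difference of group means.

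At day 3, embryos in BAPN from gastrula held 9.90 CPM of LOC119721081 with 1.2 mM and 6.19 CPM with 0.8 mM, and their controls held 4.75 CPM and 4.96 CPM. The groups did not overlap, but the treated libraries lay apart from each other and the change of 0.73 ± 0.38 did not pass (adjusted p = 0.157). It was 0.34 without the 1.2 mM library (replicate 1 of its group) and 1.04 without the 0.8 mM library (replicate 2), and passed in neither case (adjusted p = 0.696 and 0.0992). At day 4, embryos in BAPN from blastula held 14.5 CPM with 1.2 mM and 6.39 CPM with 0.8 mM, and the day 4 controls held 3.68 CPM and 3.11 CPM. All treated libraries were again above all controls, and the change of 1.62 ± 0.39 was called (adjusted p = 0.0015). It rested on the 1.2 mM library: without that library (replicate 1 of its group) the change was 0.96 and the call was lost (adjusted p = 0.0712).

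Gastrula to day 4 embryos held 6.08 CPM of LOC119721081 with 1.2 mM and 6.91 CPM with 0.8 mM. Both values lay above both day 4 controls, and the change of 0.93 ± 0.39 did not pass (adjusted p = 0.058). It passed when either blastula to day 4 library was left out of the shared model, at 0.95 in both cases (adjusted p = 0.0299 without replicate 1 and 0.0266 without replicate 2). Recovered embryos held 4.77 CPM after 1.2 mM and 5.78 CPM after 0.8 mM. These values were above the day 4 controls, with a change of 0.63 ± 0.39 that did not pass (adjusted p = 0.34).

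**Figure D1:**
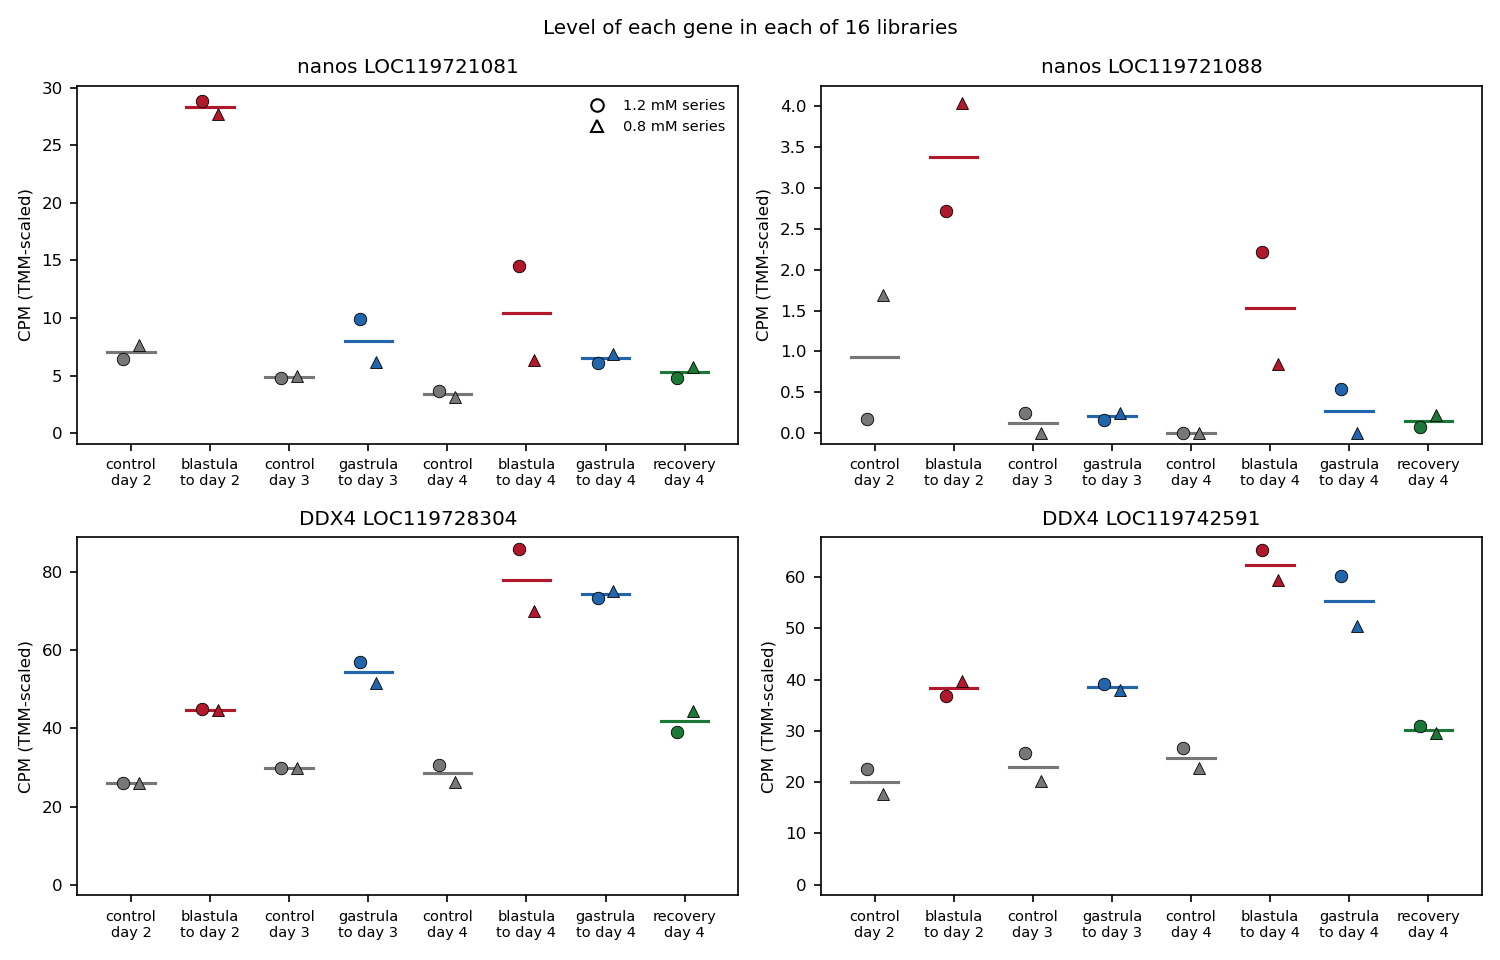
Level in CPM after TMM scaling (vertical axis, linear, from 0) of each of the 4 genes in each of the 16 libraries, by group (horizontal axis). Circles are libraries of the 1.2 mM series and triangles of the 0.8 mM series, controls included, and short lines are group means. LOC119721081 stands highest in blastula to day 2, at 27.7 and 28.9 CPM, and both DDX4 genes stand highest in the 4 libraries still in BAPN at day 4.

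Ordered by group mean, LOC119721081 stood at 28.3 CPM in blastula to day 2, 10.5 in blastula to day 4, 8.04 in gastrula to day 3, 7.02 in day 2 controls, 6.49 in gastrula to day 4, 5.27 in recovery, 4.85 in day 3 controls and 3.398 in day 4 controls. The top group was separated from the next by 2.71-fold with no overlap of libraries. From blastula to day 4 down to gastrula to day 4 each group overlapped the next. Recovery overlapped day 3 controls, and day 4 controls lay below all other libraries.

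This nanos gene was called lower with time in controls and in the blastula start, and both calls were lost in some alternatives. In controls it was lower at day 4 than at day 2 by -1.04 ± 0.39 (adjusted p = 0.041, where 16.3% of all tested genes were called lower), and this call was lost in 7 of 22 alternatives, with values of -0.92 to -1.18 among them. Among these, leaving out replicate 2 of the day 2 controls gave an adjusted p of 0.149, and leaving out replicate 1 or 2 of the day 4 controls gave 0.189 and 0.101; without blastula to day 2 replicate 1 or either day 3 control it was 0.051 to 0.053. In embryos kept in BAPN from blastula it was lower at day 4 than at day 2 by -1.44 ± 0.37 (adjusted p = 0.0048, with 29.9% of genes called in either direction). Without the 0.8 mM library (replicate 2) at day 4 this was -0.98 and not called (adjusted p = 0.067). In the gastrula start the change from day 3 to day 4 was -0.31 and was not called (adjusted p = 0.71). The effect of BAPN itself did not differ detectably between day 4 and day 2 of the blastula start, at -0.39 (adjusted p = 0.65).

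Embryos that had recovered from day 2 to day 4 held far less LOC119721081 than embryos sampled in BAPN at day 2, with a change of -2.42 ± 0.38 (adjusted p = 2.0e-05, where 20.8% of genes were called lower). Against embryos kept in BAPN to day 4 the change was -0.98 ± 0.38 (adjusted p = 0.036, where 23.3% of genes were called lower). That call was lost in 7 of 22 alternatives and fell to -0.32 (adjusted p = 0.59) without the 1.2 mM blastula to day 4 library. Leaving out recovery replicate 1 gave -1.07 (adjusted p = 0.0993), leaving out recovery replicate 2 gave -0.85 (adjusted p = 0.184), and leaving out either day 3 control gave -0.92 (adjusted p = 0.0666).

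LOC119721088, the other nanos gene, was barely detected and is best read as counts. Blastula to day 2 embryos had 32 counts with 1.2 mM and 40 with 0.8 mM, while their controls had 2 and 18. Blastula to day 4 embryos had 22 and 9 counts, and both day 4 controls had 0. The treated libraries thus lay above their controls at both times, and these groups hold most of the 142 counts of the gene.

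The remaining groups were near or at the floor for LOC119721088. Gastrula to day 3 had 2 and 3 counts, day 3 controls 4 and 0, gastrula to day 4 had 6 and 0, and recovery had 1 after 1.2 mM and 3 after 0.8 mM. Only 4 libraries, both of blastula to day 2, 1 control of day 2 and 1 of blastula to day 4, had over 10 counts, and through them the gene passed the filter.

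At day 4 the blastula start was called higher for LOC119721088 (adjusted p = 0.0136). The treated group mean was 12.2-fold the limit set for 0 counts, 3 counts over the control group. The 95% Poisson interval of the ratio, which covers counting error only, began at 9.2. The edgeR call was lost when either day 4 control was left out (adjusted p = 0.0851 without replicate 1 and 0.0827 without replicate 2). At day 2 the ratio of counts, scaled to library size, was 3.74 with a 95% Poisson interval of 2.26 to 6.49 that covers counting error only. The edgeR test, which includes the spread between libraries, did not call it (adjusted p = 0.32). In controls the gene was called lower at day 4 than at day 2 (adjusted p = 0.035), a call that was lost without day 2 control replicate 2, the library with 18 counts (adjusted p = 0.282), or without replicate 1 or 2 of the day 4 controls (0.155 and 0.152). Recovery was called lower than blastula to day 2 (adjusted p = 0.038), and this was lost in 11 of 22 alternatives, with adjusted p of 0.0505 to 0.216, among them those without either library of blastula to day 2, recovery, gastrula to day 3 or the day 3 or day 4 controls.

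For the DDX4 genes, treated and control libraries were apart at every time. Embryos in BAPN from blastula to day 2 held 45.0 CPM of LOC119728304 with 1.2 mM and 44.6 CPM with 0.8 mM, against 26.1 CPM and 26.0 CPM in their controls. The change was 0.78 ± 0.16 (adjusted p = 4.6e-04). Gastrula to day 3 embryos held 57.0 CPM and 51.8 CPM, and day 3 controls 30.0 CPM and 29.8 CPM. The treated libraries again lay above both controls and the change was 0.86 ± 0.16 (adjusted p = 1.7e-04).

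The difference in level was larger in size at day 4, and the tests of this between days are given below. Blastula to day 4 embryos held 85.9 CPM of LOC119728304 with 1.2 mM and 70.02 CPM with 0.8 mM, and gastrula to day 4 embryos held 73.5 CPM and 75.2 CPM. Day 4 controls held 30.7 CPM in the 1.2 mM series and 26.4 CPM in the 0.8 mM series. Every library in BAPN had over 2 times the level of either control, and the changes were 1.45 ± 0.16 for the blastula start (adjusted p = 1.2e-07) and 1.38 ± 0.16 for the gastrula start (adjusted p = 3.0e-07). Recovered embryos held 39.0 CPM after 1.2 mM and 44.6 CPM after 0.8 mM, above both controls and below all libraries in BAPN at day 4.

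LOC119742591, the second DDX4 gene, had the same order of treated groups at lower levels. Blastula to day 2 embryos held 36.9 CPM with 1.2 mM and 39.8 CPM with 0.8 mM, against 22.5 CPM and 17.6 CPM in controls. Gastrula to day 3 embryos held 39.1 CPM and 38.0 CPM, against 25.6 CPM and 20.2 CPM. At both times all treated libraries exceeded all controls, with changes of 0.93 ± 0.19 (adjusted p = 3.7e-04) and 0.75 ± 0.18 (adjusted p = 0.0029). The second of these fell to 0.58 without replicate 2 of the day 3 controls and was then not called (adjusted p = 0.0872).

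At day 4, LOC119742591 stood at 65.3 CPM and 59.4 CPM in the blastula start and at 60.2 CPM and 50.5 CPM in the gastrula start, each with 1.2 mM first. Day 4 controls held 26.7 CPM and 22.7 CPM. The changes were 1.34 ± 0.19 (adjusted p = 3.0e-06) and 1.16 ± 0.19 (adjusted p = 2.1e-05). Recovery, at 30.9 CPM after 1.2 mM and 29.5 CPM after 0.8 mM, lay above both controls.

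Ordered by group mean, LOC119728304 stood at 77.97 CPM in blastula to day 4, 74.4 in gastrula to day 4, 54.4 in gastrula to day 3, 44.8 in blastula to day 2, 41.8 in recovery, 29.9 in day 3 controls, 28.5 in day 4 controls and 26.1 in day 2 controls. The 2 groups in BAPN at day 4 overlapped, as did day 3 and day 4 controls, and all other neighbours in this order were apart. For LOC119742591 the order was 62.4, 55.4, 38.5, 38.3 and 30.2 CPM in the same treated groups, then 24.7 in day 4 controls, 22.9 in day 3 controls and 20.1 in day 2 controls. Here the 2 day 4 groups in BAPN, the gastrula to day 3 and blastula to day 2 groups, and all 3 control groups overlapped their neighbours.

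Averaged over the 3 windows that have partner controls, LOC119721081 and both DDX4 genes were called higher in BAPN, where 28.1% of all tested genes were. The mean change was 1.45 ± 0.22 for LOC119721081 (adjusted p = 6.6e-06), 1.03 ± 0.09 for LOC119728304 (adjusted p = 2.7e-09) and 1.01 ± 0.11 for LOC119742591 (adjusted p = 4.5e-08). Each of these 3 was higher in 6 of 6 treated libraries than in the control that the labels name for it. The share of all tested genes that were higher in 6 of 6 is not given here, so this count has no background beside it. LOC119721088 was called as well (adjusted p = 0.015) and was higher in 5 of 6. It passed the filter mostly through blastula start libraries, so its call is not counted as separate support. Its blastula to day 2 and gastrula to day 3 windows were not called (adjusted p = 0.32 and 0.82).

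The calls per window differed between the gene pairs. In blastula to day 2, 3 of the 4 genes were called higher (21.8% of all genes were). In gastrula to day 3 the 2 DDX4 genes were called (17.1% of all genes). In blastula to day 4, LOC119721081 and the 2 DDX4 genes were called (24.4% of all genes). LOC119721088 was called there too, against controls with 0 counts, but it passed the filter mostly through blastula start libraries and is not counted as support. In gastrula to day 4 the 2 DDX4 genes were called (21.9% of all genes). Whether the pairs differ from each other in their response was not tested.

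Over time the DDX4 genes did the reverse of LOC119721081 in embryos kept in BAPN from blastula. From day 2 to day 4 of the blastula start LOC119728304 rose by 0.80 ± 0.16 (adjusted p = 5.1e-04) and LOC119742591 rose by 0.70 ± 0.18 (adjusted p = 0.0055), where 14.8% of genes were called higher. In controls neither gene was called between any 2 days, with day 4 against day 2 at 0.13 and 0.30, while 16.4% of all genes were called from day 2 to day 3, 13.7% from day 3 to day 4 and 38.2% from day 2 to day 4, in either direction. The BAPN effect of LOC119728304 was larger at day 4 than at day 2 by 0.67 ± 0.23 (adjusted p = 0.031, where 12.1% of genes were called higher), and that of LOC119742591 by 0.40 (adjusted p = 0.28). The first of these calls was lost in 6 of 23 alternatives, among them those without either blastula to day 2 library (0.67, adjusted p = 0.0669, and 0.68, adjusted p = 0.0591), without the 1.2 mM blastula to day 4 library (0.55, adjusted p = 0.106) and without the 0.8 mM series control of day 4 (0.62, adjusted p = 0.105). The BAPN effect of the gastrula start at day 4 minus that at day 3 was 0.52 for LOC119728304 (adjusted p = 0.18). For LOC119742591 it was 0.41 (adjusted p = 0.41), and neither was called. In the gastrula start the rise from day 3 to day 4 was 0.45 (adjusted p = 0.069) and 0.52 (adjusted p = 0.072), where 10.8% of genes were called in either direction. Without either blastula to day 4 library LOC119728304 passed, at 0.46 (adjusted p = 0.0461 and 0.0445). Both genes passed with only the groups compared in the model, at 0.46 (adjusted p = 0.0494) and 0.54 (adjusted p = 0.0468), and with DESeq2, at 0.47 (adjusted p = 0.0356) and 0.54 (adjusted p = 0.038).

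At day 4 no difference between starting BAPN at blastula and at gastrula was called, with 2 libraries per group. LOC119721088 had 31 counts in the blastula start and 6 in the gastrula start (adjusted p = 0.32). The blastula start exceeded the gastrula start by 0.68 for LOC119721081 (adjusted p = 0.24), by 0.07 for LOC119728304 (adjusted p = 0.84) and by 0.17 for LOC119742591, and none of the 4 genes was called, where 14.2% of all genes were called in either direction. For LOC119721081 the difference was 1.14 and called (adjusted p = 0.0417) without the 0.8 mM blastula to day 4 library.

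In recovered embryos both DDX4 genes lay between the controls and the embryos kept in BAPN at day 4. Against day 4 controls 1 of the 4 genes, LOC119728304, was called higher, at 0.55 ± 0.16 (adjusted p = 0.0197), where 7.27% of all genes were called higher. That call was lost without replicate 1 of the day 4 controls (0.47, adjusted p = 0.198) or of recovery (0.46, adjusted p = 0.175). LOC119742591 was at 0.29 ± 0.19 (adjusted p = 0.36). Against embryos kept in BAPN to day 4, LOC119728304 was lower by -0.90 ± 0.16 (adjusted p = 5.6e-05) and LOC119742591 by -1.05 ± 0.18 (adjusted p = 5.9e-05). Against embryos sampled in BAPN at day 2, neither was called, at -0.10 (adjusted p = 0.65) and -0.34 (adjusted p = 0.14).

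No dose difference was detectable for any of the 4 genes. Across the 10 treated libraries, 1.2 mM against 0.8 mM gave 0.29 for LOC119721081 (adjusted p = 0.85), 0.04 for LOC119728304 and 0.07 for LOC119742591. With the difference between the control partners taken off, the values were 0.64 (adjusted p = 0.99), 0.05 and -0.31. Of the whole table, edgeR called 2 of 16558 genes (0.0121%) in the first comparison and 0 of 17154 (0%) in the second. An unadjusted p under 0.05 was found for 1188 and 749 genes, and DESeq2 called 53 and 4.

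The 2 DDX4 genes were much alike in pattern over the libraries. Likeness was measured as the root mean square difference in log2 CPM over the 16 libraries, after each gene's own mean was taken off, among 10585 genes. Each DDX4 gene was the nearest of all genes to the other, at 0.152, where the median gene stood at 0.765 from LOC119728304 and at 0.760 from LOC119742591. The next nearest were the ubiquitin ligase gene UBR2-like LOC119740702 (0.184 and 0.171), then the vesicle fusion gene VAMP4-like (LOC119734315, 0.192) for LOC119728304 and KAT8 regulatory NSL complex subunit 1-like (LOC119719962, 0.171), a chromatin acetylation subunit, for LOC119742591.

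Per kb of gene model, LOC119728304 took 52.4% to 59.7% of the counts of the DDX4 pair, with a median of 54.9%. Treated and control groups were mixed in this share. Copies that are alike can share reads, and how such reads were counted is not given in the sources used here. The split between the copies is therefore uncertain. It is also uncertain how far the like patterns and the calls of the 2 copies are separate observations. Reads that were dropped or counted for both would also change the sum. In CPM the sum of both copies was 46.1 ± 3.6 in day 2 controls, 83.1 ± 1.8 in blastula to day 2, 52.8 ± 3.9 in day 3 controls, 92.9 ± 4.5 in gastrula to day 3, 53.2 ± 5.9 in day 4 controls, 140.3 ± 15.4 in blastula to day 4, 129.8 ± 5.6 in gastrula to day 4 and 72.0 ± 3.0 in recovery (SD, n = 2).

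**Figure D2:**
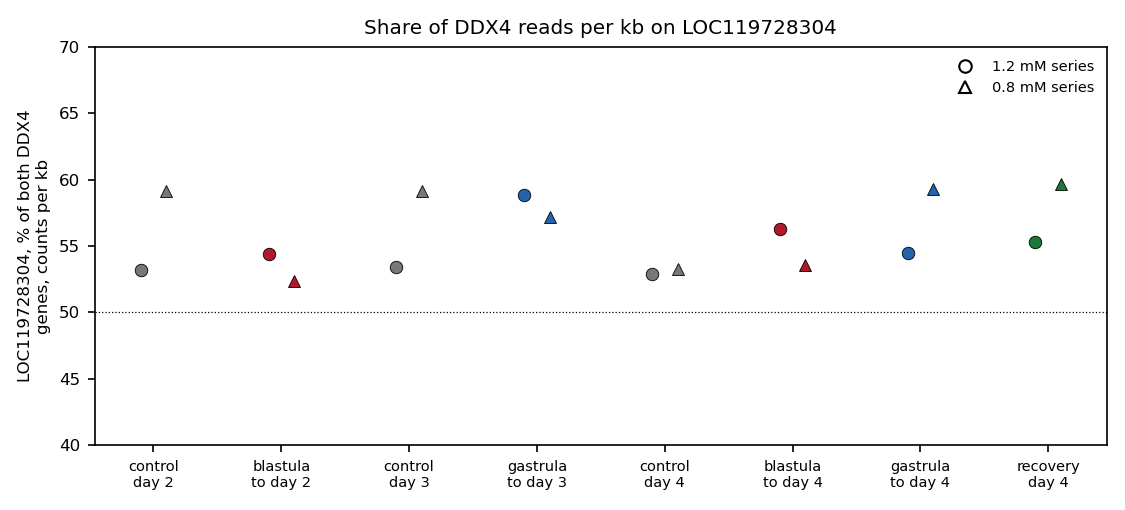
Share of the DDX4 pair taken by LOC119728304, in counts per kb of gene model (vertical axis, percent, cut to 40 to 70), in each of the 16 libraries by group. Circles are the 1.2 mM series, triangles the 0.8 mM series, and the dotted line marks equal shares. All libraries lie between 52.4% and 59.7%, with treated and control groups mixed.

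The genome around the DDX4 copies is also alike. Of the 8 annotated genes to each side, 8 in all have a counterpart around the other copy, in the same order and on the same strand. From the lower to the higher coordinates they are neuromedin-U receptor 2-like, F-box/WD repeat-containing protein 7-like, the kinase Nek8-like, then DDX4, then a gene of the autophagy protease ATG4D, dihydropyrimidine dehydrogenase-like, U2 small nuclear ribonucleoprotein A'-like, the transporter ABCA1-like and beta-1,3-galactosyltransferase 1-like. The ATG4D counterpart beside LOC119742591 is annotated as uncharacterized (LOC119743176) and was matched by its best protein hit. Whether the 2 segments are a duplication or 2 assembled versions of 1 locus cannot be told apart in these files. This comparison of neighbours beyond the nearest gene was added after the annotation had been seen.

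**Figure D3:**
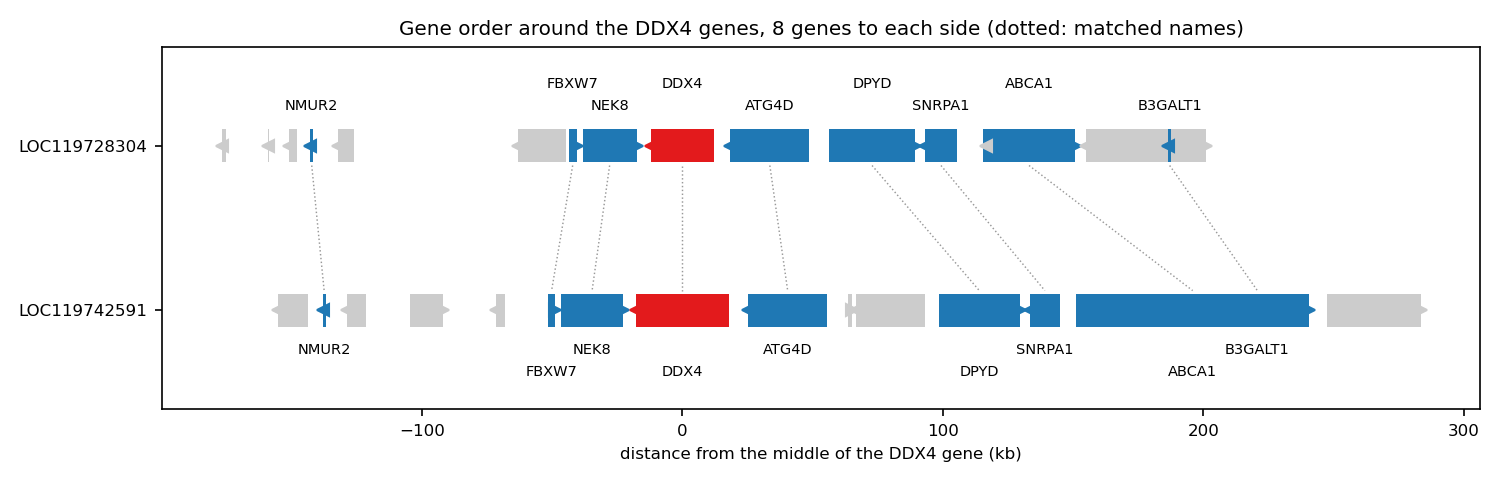
Annotated genes around LOC119728304 (top) and LOC119742591 (bottom), to scale, with distance from the middle of the DDX4 gene in kb (horizontal axis). Red is DDX4, blue a gene with a counterpart around the other copy (dotted lines), grey any other gene, and arrowheads give the strand. All 8 counterparts keep their order and strand.

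The neighbours did not all behave like DDX4. The nearest genes on the higher side, ATG4D-like LOC119728522 (6349 bases away) and its counterpart LOC119743176 (7309 bases away), were called higher in BAPN, with mean changes of 1.62 ± 0.56 (adjusted p = 0.018) and 1.40 ± 0.35 (adjusted p = 0.0017), in 6 of 6 treated libraries each. On the lower side the Nek8-like genes LOC119728303 and LOC119743204 were at -0.35 (adjusted p = 0.36) and -0.26 (adjusted p = 0.55). The dihydropyrimidine dehydrogenase-like genes, which break down pyrimidines, fell by 0.73 ± 0.11 (LOC119728305, adjusted p = 3.5e-06) and 0.82 ± 0.09 (LOC119742816, adjusted p = 4.7e-08). The U2 A'-like splicing genes LOC119728509 and LOC119743081 were at -0.46 ± 0.13 (adjusted p = 0.0044) and -0.34 ± 0.18 (adjusted p = 0.11).

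The nanos genes sit in a cluster. In all, 7 genes of the table carry the nanos RNA-binding domain, and they lie within 363.5 kb of scaffold NW_024037076.1. LOC119721081 took 87.9% of their 1931 counts. None of the 5 genes that were not chosen passed the filter, and 2 of them, LOC119721033 and LOC119720962, had no count in any library. LOC119720961, another nanos homolog 3-like gene, had 26 of its 37 counts in blastula to day 2 and 8 in day 2 controls. LOC119720277, a nanos homolog 1-like gene, had 18 of its 47 counts in blastula to day 2 and 14 in day 2 controls. LOC119720960 had 8 counts in all.

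Between the 2 nanos members, LOC119721081 took 70.6% to 100% of counts per kb, with a median of 93.1%. Its lowest shares were in day 2 control replicate 2 and in the blastula start libraries, those where LOC119721088 had 9 or more counts. The genes nearest in pattern to LOC119721081 were M-phase inducer phosphatase-like LOC119739749 (0.382), a cell cycle phosphatase, histone H1.0-like LOC119721318 (0.384) and shisa-5-like LOC119738085 (0.401), with a median gene at 1.01. The DDX4 genes ranked only 2820th and 2579th in likeness to it.

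The nearest neighbours of LOC119721081 were a tRNA gene 309 bases away with 31 counts in all and the alanyl-tRNA editing gene Aarsd1-B-like 497 bases away, whose mean change was 0.07 (adjusted p = 0.61). On the lower side of LOC119721088 lay VPS13C-like, a lipid transfer gene, 6353 bases away and lower in BAPN by -1.75 ± 0.21 (adjusted p = 9.1e-06). On its other side, upstream on the same strand and only 2 bases away, lay LOC119721086, named multiple epidermal growth factor-like domains protein 11. This neighbour had 33 and 33 counts in blastula to day 2, 46 and 31 in blastula to day 4 and 13 in 1 gastrula to day 4 library, and at most 4 in any other. These 5 libraries were also among the 6 in which LOC119721088 had over 5 counts, the sixth being day 2 control replicate 2. Whether reads cross from 1 gene model to the other was not tested.

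Among RNA regulators that germ cells use, members rose and fell in like numbers. Of 42 genes found by name, 37 passed the filter. Averaged over the 3 windows, 13 were called higher and 10 lower, with a median change of -0.07, the same as the median of all genes (28.1% of all genes were called higher and 30.1% lower). With total-count scaling 8 were higher and 11 lower, with a median of -0.29, again that of all genes. Pumilio 2-like LOC119724478, of the family that binds RNA with nanos, rose by 0.45 ± 0.07 (adjusted p = 4.9e-06), and pumilio 3-like LOC119737303 rose by 0.25 ± 0.08 (adjusted p = 0.0092). The windows of pumilio 3-like differed in sign: it was called lower in blastula to day 2, at -0.48 (adjusted p = 0.00759), was at 0.10 in gastrula to day 3 (adjusted p = 0.662) and was called higher in blastula to day 4, at 1.14 (adjusted p = 5.43e-07). Among called genes the largest rises were those of the helicase MOV-10 LOC119726754 (3.39 ± 0.23) and of bicaudal C LOC119729938 (2.13 ± 0.08), an RNA-binding translational regulator. The largest falls were those of SPSB3-like LOC119729018 (-2.64 ± 0.08), a SOCS box protein, and of CPEB2-like LOC119739653 (-1.88 ± 0.10), a polyadenylation factor. Staufen 2-like LOC119724567, which carries RNA, fell by 0.56 ± 0.08 (adjusted p = 1.8e-06).

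Genes named for the deadenylase that nanos recruits, taken with other poly(A)-specific ribonucleases, went both ways. Of 13 CCR4-NOT and related genes, 3 were called higher and 3 lower in the mean effect (28.1% and 30.1% of all genes were), with a median of -0.02 (2 higher, 5 lower and -0.24 with total-count scaling). CNOT4-like LOC119725520 rose by 0.90 ± 0.08 and CNOT2-like LOC119745901 by 0.63 ± 0.08. The nuclease gene Ccr4-like LOC119745272 fell by 0.59 ± 0.11, and the poly(A) ribonuclease PARN-like LOC119738103 fell by 0.39 ± 0.16 (adjusted p = 0.035).

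The other DEAD-box helicases, most of which act in ribosome assembly and splicing, give a frame for DDX4. Averaged over the 3 windows, 13 of 25 were called higher and 6 lower (28.1% and 30.1% of all genes), with a median of 0.28 (10, 8 and 0.06 with total-count scaling). DDX59 LOC119745991 (1.95 ± 0.21), DDX47 LOC119734423 (1.93 ± 0.12) and LOC119734407 (1.88 ± 0.14) and DDX49 LOC119738416 (1.55 ± 0.09) had the largest rises. In blastula to day 2, 5 were called higher (21.8% of all genes were) and 7 lower (3447 of 17519 genes were), with a median of -0.01. In blastula to day 4, 18 were called higher (24.4% of all genes) and none of the 25 lower (4779 of 17519 genes were). The median was 0.76, and total-count scaling gave 16 higher, 1 lower and a median of 0.55.

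In untreated embryos most of these helicases fell over time. From day 2 to day 4 in controls, 19 of the 25 were called lower (16.3% of all genes were, and 38.2% in either direction), with a median of -1.0. DDX20 LOC119736384 was called higher, at 0.62 ± 0.18 (adjusted p = 0.0096). LOC119728304 and LOC119742591 were at 0.13 and 0.30 in that comparison and were not called. In recovery 14 of the 25 were called higher than in day 4 controls (7.27% of all genes were), with a median of 0.64. All these day 4 comparisons share the same controls, and whether DDX4 differs from the other helicases was not tested.

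**Figure D4:**
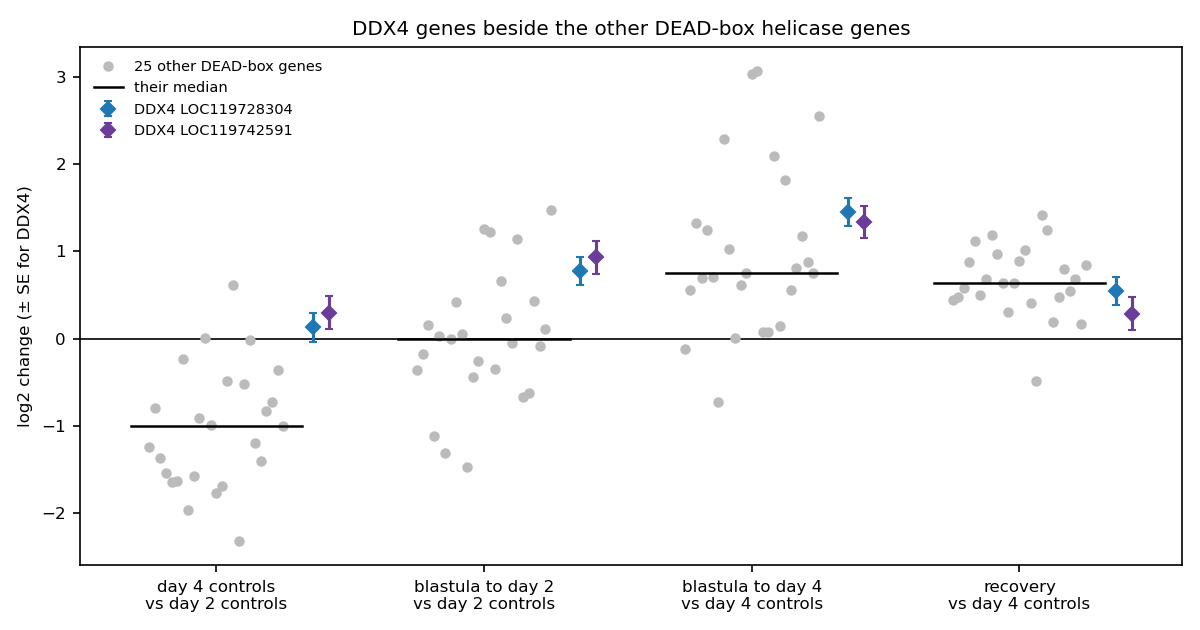
Log2 change (vertical axis) of 25 other DEAD-box helicase genes (grey points, black line at their median) and of both DDX4 genes (diamonds, ± SE) in 4 comparisons (horizontal axis). The other helicases have medians of -1.0 in controls from day 2 to day 4 and 0.76 in blastula to day 4, and the DDX4 genes lie at 0.13 and 0.30 and at 1.45 and 1.34. The comparisons at day 4 share the day 4 controls.

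Nodal pathway genes, which take part in narrowing the germ cell domain of sea stars, were called higher more often than lower in the mean effect. Of 11 genes, 7 were called higher and 1 lower (28.1% and 30.1% of all genes), with a median of 0.60 (6, 2 and 0.38 with total-count scaling). The gene called lower was activin receptor type-1-like LOC119740676, at -0.30 ± 0.07. Nodal LOC119731756 rose by 0.97 ± 0.12 (adjusted p = 5.4e-07, in 4 of 6 treated libraries), and lefty LOC119746331, its feedback inhibitor, by 1.07 ± 0.17 (adjusted p = 1.1e-05, in 5 of 6). Both were called in blastula to day 4, at 2.73 and 2.45, and in neither other window: nodal was at 0.15 in blastula to day 2 (adjusted p = 0.592) and 0.04 in gastrula to day 3 (adjusted p = 0.925), and lefty at 0.55 (adjusted p = 0.112) and 0.20 (adjusted p = 0.668). Smad2-like LOC119745012 and LOC119744569, of the family that carries the signal to the nucleus, rose by 2.36 ± 0.30 and 1.96 ± 0.36, and the ligand DVR-1 LOC119725288 rose by 1.25 ± 0.07. Nodal modulator LOC119735620, a membrane protein, was at 0.08 ± 0.08 (adjusted p = 0.41).

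Cell type markers moved with BAPN as well, in a mean effect where 30.1% of all genes were called lower and 28.1% higher. All 10 genes of dividing cells were called lower, with a summed level of 120 to 256 CPM in libraries in BAPN, 933 to 1172 CPM in controls and 1361 to 1432 CPM in recovery. Of 21 cilia genes 20 were called lower, with sums of 1327 to 3198 CPM in BAPN and 3149 to 5232 CPM in controls. Muscle genes (4 of 5 called lower) summed to 52.2 to 94.8 CPM against 122 to 1374 CPM. Genes with synaptotagmin-1 or ELAV-like names, taken as neuron genes (5 of 7 called lower), summed to 303 to 534 CPM against 665 to 914 CPM. The ELAV-like and CUGBP Elav-like genes among them are also counted in the RNA regulators above and were not shown to be particular to neurons. In blastula to day 2, 3 neuron genes were called lower (3447 of 17519 genes were) and 1 higher (3817 were). The latter was ELAV-like 1-B LOC119737432, at 0.46 (adjusted p = 0.0055). All 9 genes with ets or erg names, taken as mesoderm genes, were called higher, with sums of 2070 to 3036 CPM against 802 to 1808 CPM. They were not shown to be particular to mesoderm. In blastula to day 4 alone 5 of the 9 were called higher and 2 lower (4275 and 4779 of 17519 genes were). Recovery against day 4 controls had 2 higher and 5 lower (1274 and 1515 of all genes). The gut genes (7 of 12 higher, 4 lower) ran from 9066 to 20847 CPM against 3787 to 14968 CPM. At day 4 their sum was 20705 to 20847 CPM in the blastula start, 12610 to 14107 CPM in the gastrula start and 14657 to 14968 CPM in controls. The single endoderm gene, FoxA, was at 1.90 to 17.5 CPM against 0.086 to 14.6 CPM. The ranges against controls pool all days, and controls changed with day. FoxA in controls was at 10.5 to 14.6 CPM at day 2 and 0.086 to 0.327 CPM at day 4. The muscle sum in controls was 122 to 137 CPM at day 2 and 1150 to 1374 CPM at day 4. At least 3 muscle, 5 neuron and 8 gut genes and all others had counts in every library. The part of these shifts in the levels of nanos and DDX4 was not tested.

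Scaling by total counts alone moved the median gene of the mean BAPN effect from -0.07 to -0.29, and higher calls from 48.3% to 36.5% of all calls. Under that scaling LOC119721081 was at 1.23, LOC119728304 at 0.81 and LOC119742591 at 0.78, all still called. The same share fell from 52.5% to 38.9% in blastula to day 2 and from 53.1% to 38.4% in gastrula to day 3. In recovery against day 4 controls the share of higher among calls was 45.7% with TMM and 58.4% with total counts.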

How the data were processed

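Libraries of polyA RNA were paired-end and strand-specific, per the labels. The authors deposited whole-number read counts per gene, 1 table of 16 libraries and 27818 genes, and all 16 columns were matched by library name. Which aligner, counting program and genome build they used is not given in the sources used here. For all 27818 genes the coordinates equal those in the reference table of Pmin_3.0, the source of the product names.

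The filter of edgeR, run on the 8 groups with a minimum count of 10 and a minimum total of 15, left 17519 genes. TMM scaling and 1 quasi-likelihood model with robust dispersions, with 8 residual degrees of freedom, gave all tests but those for dose, which had models of their own, adjusted by Benjamini-Hochberg within a comparison; log2 CPM used a prior count of 2. The SE is the change divided by the square root of F. The software was edgeR 4.0.16 with limma 3.58.1, and DESeq2 1.42.0, in R 4.3.3; the code was tested on simulated data. Intervals and floors cover counting error only. The alternatives were total-count scaling, no filter, only the groups compared, non-robust dispersions, DESeq2, the dose series as a term, a further window (gastrula to day 4), a replicate block and each library left out.

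Members and gene lists (words in product names) were chosen with earlier results of these data known. Named from each list were up to 4 called genes with the largest mean BAPN effect in size, and the pumilio, staufen, nodal and lefty genes; by likeness the 3 nearest genes; by position the nearest gene to each side. Activin receptor type-1-like, DDX20, the 5 further nanos genes and the wider DDX4 neighbourhood were added after their values were seen. Ribosomal RNA genes took under 1% of counts except in recovery (2.02% and 1.34%) and in replicate 2 of the day 4 controls (3.2%). No 2 libraries of a group agreed within sampling noise (chi-square per gene 5.25 to 24.6).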

Additional observations from a re-analysis of the deposited data

Results flagged for a closer look

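The BAPN effect on the DDX4 gene LOC119728304 differed between 2 times of the same treatment. It was larger at day 4 than at day 2 of the blastula start by 0.67 on the log2 scale (edgeR interaction test, adjusted p = 0.031). The call was lost in 6 of 23 alternatives. Among them were no filter (0.67, adjusted p = 0.0652) and only the groups compared (0.59, adjusted p = 0.134). The level in BAPN went from 44.8 CPM to 77.97 CPM between those days, and that in controls from 26.1 CPM to 28.5 CPM. For the other DDX4 gene, LOC119742591, the difference was 0.40 (adjusted p = 0.28). No cause was tested.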

How the results depend on the processing

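Among the alternatives tried, the mean BAPN effect kept its direction and its call for all 4 genes in all 24 alternatives. In the window comparisons, calls changed only when a library was left out; these calls are named with their adjusted p in the report. Leaving out 1 library at a time gave these log2 ranges: LOC119721081 in blastula to day 4, 0.96 to 2.09, and in gastrula to day 4, 0.84 to 1.07; LOC119742591 in gastrula to day 3, 0.58 to 0.93; LOC119728304 in recovery against controls, 0.46 to 0.67. For LOC119721088 the difference in CPM ran from 0.876 to 2.22 in blastula to day 4 and from -0.0378 to 0.209 in gastrula to day 3. Genes called in recovery against day 4 controls numbered 2789, 5303 with only the compared groups in the model, and 1560 to 3224 with 1 library left out. The cause of these shifts was not tested.

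Values that were not called and changed sign with 1 library left out were, for LOC119728304, recovery against blastula to day 2 (-0.12 to 0.03), blastula against gastrula start at day 4 (-0.05 to 0.19), day 4 against day 3 controls (-0.17 to 0.03) and dose (-0.02 to 0.10). For LOC119742591 they were day 4 against day 3 controls (-0.08 to 0.27) and the day 3 effect minus the day 2 effect (-0.31 to 0.08). For LOC119721081 they were gastrula to day 4 against day 3 (-0.61 to 0.07), the blastula effect at day 4 minus day 2 (-1.06 to 0.07) and the gastrula effect at day 4 minus day 3 (-0.09 to 0.59). For LOC119721088 they were, in CPM, gastrula to day 4 against day 3 (-0.209 to 0.341) and the gastrula effect at day 4 minus day 3 (-0.0863 to 0.462), and in log2 dose (-0.14 to 0.83) and dose against controls (-3.61 to 3.12). With total counts alone, LOC119728304 changed sign in recovery against blastula to day 2 (0.19) and in blastula against gastrula start at day 4 (-0.04), and LOC119742591 in day 4 against day 3 controls (-0.06).

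The replicate block used the pairs of treated library and control that the labels name. Deviations of paired libraries from their group means had r of -0.0065 to 0.0226. With 2 libraries per group, both pairs of a window give the same r, and treated deviations include any dose difference. Whether the pairs shared more than a name cannot be told from this check. With the block the mean effects were 1.37 for LOC119721081, 0.99 for LOC119728304 and 0.97 for LOC119742591, 9558 genes were called for the mean effect against 10078 without it among the same 17154 genes, and no call on the 4 genes changed.

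Depth limits LOC119721088, which was filtered out of 11 fits of only the groups compared; DESeq2 gave no adjusted p for dose in either nanos gene nor for the gastrula effect over time in LOC119721088. With 2 libraries per group at different doses, the spread within a treated group includes any dose effect.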
